A study of Mus musculus with 16 samples.

Results

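Kiss1, Cabyr, Cyp17a1 and Gm43314 were among the genes with the largest rises in the liver of obese mice given the glucagon analogue G108. They were chosen by the size of their fold change between G108 and vehicle, so the values of that comparison are a description and carry no test. The 4 genes are 4 of 55487 in the table, and all 4 were among the 11839 genes with a mean of at least 1 TPM over all libraries. TPM is the share of a library's reads that falls on a gene, corrected for the gene's length and set so that every library has the same total.

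Whole liver was taken from 16 male C57BL6/J mice, with 1 library per mouse and 4 mice in each of 4 groups called vehicle SP, G108 SP, vehicle HP and G108 HP. By the labels, all 16 mice had been fed a diet with 60 kcal% fat for 8 weeks from the age of 10 weeks and then received a high fat diet with either standard protein (SP) or high protein (HP). They were injected under the skin once a day for 22 days with vehicle or with 2.5 nmol/kg G108, and were killed on day 25 after a fast of 4 h. G108 is a long-acting agonist of the glucagon receptor, and the question put to the libraries was which liver responses to it persist when dietary protein is raised. The study's methods give another age, another length of feeding and another day of death than the labels do.

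Glucagon acts on hepatocytes through a receptor coupled to cyclic AMP, protein kinase A and the transcription factor CREB. It is known for switching on genes of glucose production and amino acid breakdown. Kiss1 encodes the precursor of kisspeptin, a peptide best known for driving reproductive hormone release from the hypothalamus, which the liver also makes under glucagon. Cyp17a1 encodes the steroid 17-alpha-hydroxylase of the gonad, and it is also expressed in rodent liver. Cabyr encodes a calcium-binding protein of the fibrous sheath of the sperm tail. Gm43314 is a single-exon locus annotated only as TEC, a class of loci that await experimental evidence, with no known product.

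Per the GENCODE annotation of GRCm38, Kiss1 (ENSMUSG00000116158) lies at chr1:133321875-133329901 on the plus strand with 3 exon blocks and 779 exonic bases. None of these bases belongs to Kiss1 alone. All 779 lie in the longer of a pair of genes both named Gm28040 (ENSMUSG00000098306, 1465 exonic bases), 498 lie in the shorter (ENSMUSG00000115958, 741 exonic bases) and 102 lie in Golt1a (ENSMUSG00000103421), all on the same strand. Golt1a encodes a vesicle transport protein. The Gm28040 models begin at the Golt1a end of the locus and run through Kiss1. In this annotation every read on a Kiss1 exon therefore also lies on a Gm28040 exon, and Kiss1 RNA and Gm28040 RNA cannot be told apart in the Kiss1 value. Reads counted for Kiss1 numbered 77 to 484 per library. How the authors treated reads on several genes is not given in the sources used here, and their release of the annotation was another one. Of 1224 genes with no exonic base of their own, 364 had at least 10 reads in every library.

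Gm43314 (ENSMUSG00000104528) is a 2231-base exon at chr3:157894961-157897191 on the minus strand. It lies in the last intron of Cth, which encodes the cysteine-producing enzyme cystathionine gamma-lyase, on the same strand. It covers 94.4% of that intron of 2364 bases, shares 0 exonic bases with Cth, and begins at the first base after a Cth exon, with a gap of 0 bases, while 133 bases separate its end from the last Cth exon. The 3 stretches that follow, each of 30 bases on the minus strand of GRCm38, are shown because they place the start of Gm43314 at the exon boundary. They are the end of the Cth exon (chr3:157897192-157897221), the first bases of Gm43314 (chr3:157897162-157897191) and the start of the last Cth exon (chr3:157894798-157894827), and the capitals mark the GT with which Gm43314 begins, the letters that usually open an intron.
Cth exon end: gaagacctggatcgagctttgaaggcagcg
Gm43314 start: GTaagttgtgtgtgtgtgtgtaatcttttt
Cth next exon start: cacccttaaaagttcgagtcaaagctgtca

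Cabyr (ENSMUSG00000024430) lies at chr18:12740322-12755260 on the plus strand, with 7 exon blocks and 2505 exonic bases. The processed pseudogene Gm7599 lies in one of its introns on the opposite strand and shares 0 exonic bases with it. Its nearest neighbours are Ttc39c, 1458 bases away on the same strand, and Osbpl1a, 53 bases away on the opposite strand. Cyp17a1 (ENSMUSG00000003555) lies at chr19:46667165-46673172 on the minus strand, with 7 exon blocks and 2769 exonic bases, and overlaps no annotated gene. The nearest genes are the lincRNA AC156982.1 at 1038 bases and the pseudogene Gm6967 at 1100 bases, both on its strand and neither above a group mean of 0.324 TPM.

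**Figure D1:**
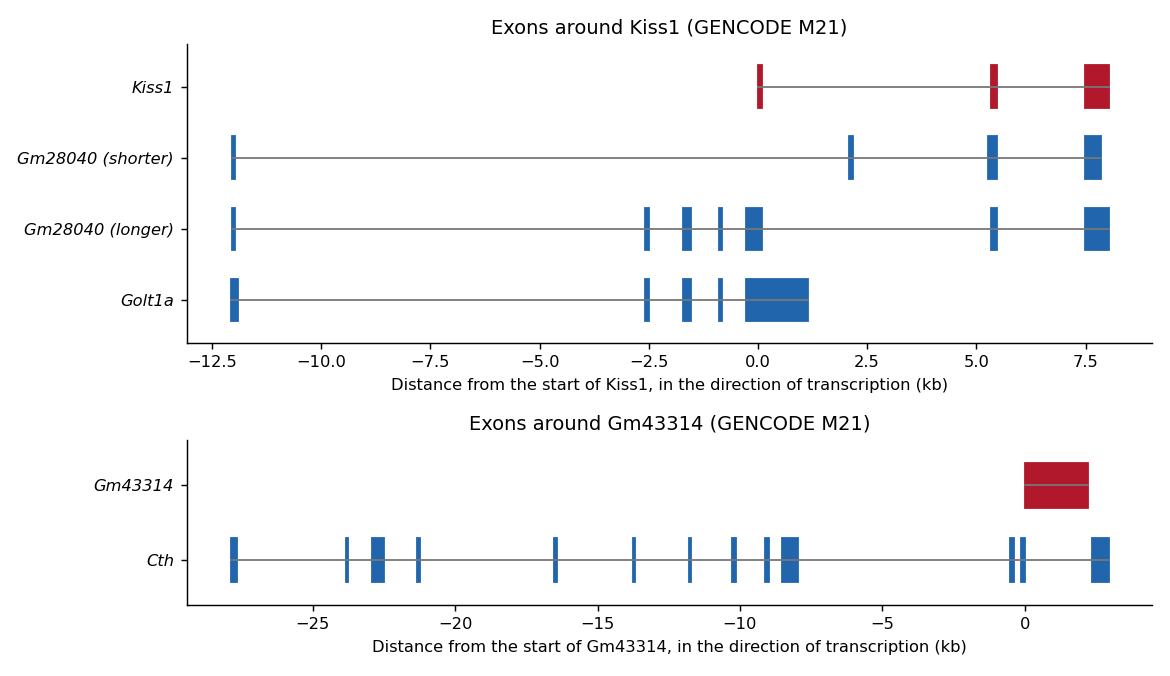
Exons (boxes) of the genes around Kiss1 and around Gm43314, against the distance in kb from the start of Kiss1 or Gm43314 in the direction of transcription. Each Kiss1 exon falls inside an exon of the longer Gm28040, and Gm43314 fills 94.4% of the last Cth intron.

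The promoter table from RefSeq on GRCm38.p6 held Kiss1 and none of the other 3 genes. Its Kiss1 start site, 133327212, lies 5337 bases downstream of the GENCODE start given above, at the second exon block, so the stretch before it is intron of Kiss1 in GENCODE. CREB binds the palindrome TGACGTCA or its half-site TGACG. Both strands were searched over the 250 bases before each start site. The full palindrome was present in 1.55% of 32851 promoters, in 0 of 15 genes on a list of known glucagon, cyclic AMP and CREB targets, and not in Kiss1. The half-site was present in 17.8% of all promoters, in 9 of the 15 genes, and once before the RefSeq start of Kiss1, at 231 bases. A listed gene counts if any of its promoters holds the motif, so the 15 genes and the 32851 promoters are unlike units. The full palindrome holds the half-site, so a promoter with the first is also counted under the second. The nuclear receptor half-site AGGTCA was present in 14% of all promoters, in 4 of the 15 and at 2 places before the RefSeq start of Kiss1, at 65 and 36 bases, both within an exon of the shorter Gm28040. The stretch chr1:133326962-133327134 on the plus strand, which ends where that exon begins, is shown for the CREB half-site, which stands in capitals as it reads on this strand.
Before the RefSeq start of Kiss1: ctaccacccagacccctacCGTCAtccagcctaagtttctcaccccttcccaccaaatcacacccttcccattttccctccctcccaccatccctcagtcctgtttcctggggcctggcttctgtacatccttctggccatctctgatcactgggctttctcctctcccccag

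Depth, recovered from the values, was 33.4 M to 45 M reads per library with vehicle and 27.8 M to 36.5 M with G108. The major urinary protein genes took a median of 44.8% of the TPM total in vehicle SP, 39.2% in vehicle HP, 20.5% in G108 SP and 24.5% in G108 HP. With the totals fixed in this way, the median gene was 0.60 higher with G108 on SP on the log2 scale and 0.09 higher on HP. Results for the 4 genes and the calls on gene lists are therefore also given on a scale that puts the median gene near 0. That scale was made by median-of-ratios factors. Other levels are in TPM unless marked as scaled. In G108 HP, mitochondrial genes took 37.3% of the total in mouse 3 and 27.4% in mouse 2, against 21% in mice 1 and 4. Leaving out 1 library moved the number of genes called on HP by over 1.5 times, so counts on HP rest on few libraries.

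Kiss1 stood at 8.53, 3.91, 3.81 and 5.10 TPM in vehicle SP mice 1 to 4 and at 9.21, 5.08, 4.80 and 3.72 TPM in vehicle HP. With G108 it stood at 19.6, 27.6, 21.9 and 19.6 TPM on SP and at 18.0, 23.7, 20.8 and 21 TPM on HP. All 8 G108 mice lay above all 8 vehicle mice, and mouse 1 was the highest of the vehicle mice on each diet. The means were 5.34 ± 2.21 (SD, n = 4) for vehicle SP, 5.70 ± 2.41 for vehicle HP, 22.2 ± 3.76 for G108 SP and 20.9 ± 2.31 for G108 HP. The mean was 4.15 times higher with G108 on SP and 3.66 times higher on HP. In TPM, Kiss1 varied less between G108 mice than the other 3 genes did, with a coefficient of variation of 16.9% on SP and 11% on HP. After scaling it was 20.6% on SP, beside 20.5% for Gm43314.

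The RNA behind the Kiss1 value was set beside that of the genes on the same bases. Reads on Kiss1 made up 31.5% ± 9.85 (SD, n = 4) of the reads on the longer Gm28040 in vehicle SP, 26.6% ± 5.23 in vehicle HP, 42.1% ± 4.75 in G108 SP and 48.8% ± 4.04 in G108 HP. On HP the lowest G108 mouse, at 44.1%, lay above the highest vehicle mouse, at 34.4%. On SP the groups met, with a lowest G108 mouse of 36.8% and a highest vehicle mouse of 40.4%. As percent of reads on the shorter Gm28040, Kiss1 reads did not separate the groups on either diet. They were 73.9% to 191% in vehicle SP and 76.9% to 92.8% in G108 SP. On HP they were 68.1% to 118% with vehicle and 84.3% to 98.5% with G108. The shorter Gm28040 had log2 fold changes of 2.14 (SE 0.23) on SP and 1.69 (SE 0.23) on HP, beside 1.91 and 1.76 for Kiss1. After scaling it had 1.43 and 1.57, beside 1.20 and 1.66. The 686 bases of the longer Gm28040 outside the Kiss1 exons stood at 13.2 ± 3.31 TPM in vehicle SP and 34.6 ± 4.87 in G108 SP, and at 17.2 ± 2.63 TPM in vehicle HP and 24.9 ± 3.55 in G108 HP. These values are Gm28040 reads less Kiss1 reads, which holds only if shared reads were counted for both genes. All 686 bases also lie in Golt1a exons, so Gm28040 RNA and Golt1a RNA cannot be told apart there. Both ends of the overlapping unit were thus higher with G108 in TPM. Golt1a had log2 fold changes of 1.30 (SE 0.16) on SP and 0.59 (SE 0.16) on HP, and 0.59 and 0.48 after scaling. Its exons hold the same 686 bases, so it is not a separate measure of that end. Plekha6, the nearest gene upstream of the locus, had 0.65 on SP and 0.40 on HP, and -0.04 and 0.30 after scaling. Ren1, the renin gene downstream, stayed under a group mean of 1 TPM, at 0.0706 in vehicle SP, 0.0851 in vehicle HP, 0.823 in G108 SP and 0.605 in G108 HP.

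Cabyr had the largest rise on HP among the 11839 genes on the log2(TPM + 1) scale, but ranked 2 after scaling, 10 with a pseudocount of 0.1 and 9 with voom on recovered reads. It stood at 3.49, 2.78, 1.68 and 2.92 TPM in vehicle SP and at 4.2, 3.9, 3.17 and 2.42 TPM in vehicle HP. In G108 SP it stood at 8.56, 8.77, 26.8 and 18.2 TPM, and in G108 HP at 15.5, 27.6, 23.4 and 14.2 TPM. The G108 mice did not overlap with the vehicle mice on either diet. Mice 1 and 2 of G108 SP were the lowest of the treated mice, and the spread within that group, a coefficient of variation of 56.0%, was the widest of the G108 groups for any of the 4 genes. The mean was 5.74 times higher with G108 on SP, from 2.72 ± 0.758 to 15.6 ± 8.74 TPM, and 5.90 times higher on HP, from 3.42 ± 0.796 to 20.2 ± 6.39 TPM (SD, n = 4).

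Gm7599, the pseudogene inside Cabyr, ranked 4 by its rise on HP among genes called with groups that did not overlap. Among all tested genes it ranked 7 on HP. With a pseudocount of 0.1 it ranked 8 and with voom 6, where Cabyr ranked 10 and 9. Gm7599 went from 0.34 TPM in vehicle SP to 4.71 in G108 SP and from 0.705 in vehicle HP to 4.64 in G108 HP. Reads on Gm7599 were 3.85% ± 2.12 of those on Cabyr in vehicle SP, 6.48% ± 1.34 in vehicle HP, 9.44% ± 2.69 in G108 SP and 7.96% ± 3.43 in G108 HP (SD, n = 4). Whether the counts were made by strand is not given in the sources used here, so reads of Gm7599 and reads of the Cabyr intron that holds it cannot be told apart. The genes on either side stood nearer to the median gene. Ttc39c had log2 fold changes of 0.51 (SE 0.17) on SP and 0.14 on HP, and Osbpl1a had 0.74 (SE 0.25) on SP and -0.28 on HP. After scaling Ttc39c had -0.25 on SP and 0.01 on HP, and Osbpl1a had 0.06 and -0.39.

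Cyp17a1 had the highest TPM of the 4 genes in each group mean. It stood at 9.35, 12.7, 9.96 and 1.78 TPM in vehicle SP and at 16, 10.5, 16.6 and 6.22 TPM in vehicle HP. In G108 SP it stood at 24.4, 61.9, 59.7 and 45 TPM, and in G108 HP at 32.8, 27.0, 26.9 and 61.4 TPM. The groups did not overlap on either diet, mouse 4 was the lowest of each vehicle group, and mouse 4 was the highest of G108 HP. The mean rose 5.65 times on SP, from 8.45 ± 4.68 to 47.7 ± 17.3 TPM, and 3.01 times on HP, from 12.3 ± 4.90 to 37.0 ± 16.5 TPM (SD, n = 4).

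Gm43314 stood at 5.54, 2.01, 1.43 and 0.953 TPM in vehicle SP and at 4.53, 4.09, 3.13 and 1.67 TPM in vehicle HP. In G108 SP it stood at 7.03, 12.1, 14.9 and 11.2 TPM, and in G108 HP at 10.3, 12.2, 18.3 and 14.2 TPM. The groups did not overlap on the TPM scale, but after scaling they did on SP, where vehicle mouse 1, at 8.00 scaled TPM, lay above G108 mice 1 and 4, at 6.00 and 7.61. Its mean was 4.55 times higher with G108 on SP, from 2.48 ± 2.08 to 11.3 ± 3.25 TPM, and 4.10 times higher on HP, from 3.35 ± 1.27 to 13.7 ± 3.42 TPM (SD, n = 4). The 121 tested genes of the TEC class, Gm43314 among them, had median log2 fold changes of 0.68 on SP and 0.07 on HP, or 0.14 and -0.02 after scaling. None had a larger value than Gm43314 on either diet. Gm43314 was chosen for its rise, so nothing is read from that place.

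**Figure D2:**
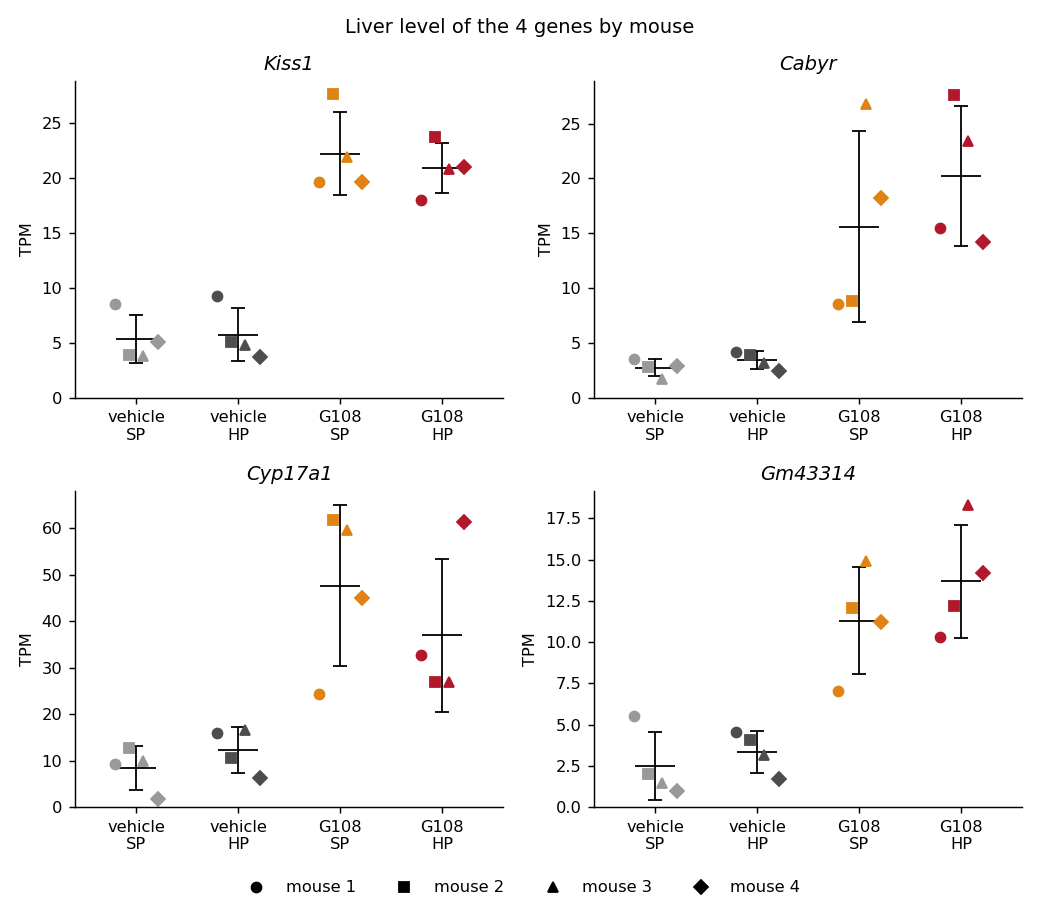
TPM of Kiss1, Cabyr, Cyp17a1 and Gm43314 in the 16 livers by group, 1 symbol per mouse, with the mean (long dash) and SD (bars) of 4 mice. The vehicle and G108 mice of a diet do not overlap in any panel, and relative to the mean, Cabyr in G108 SP and Cyp17a1 in G108 HP are the most scattered treated groups (coefficients of variation of 56.0% and 44.4%).

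Cth, the host of Gm43314, was itself higher with G108. It stood at 100, 55.7, 53.9 and 25.0 TPM in vehicle SP, at 89.5, 102, 100 and 76.8 TPM in vehicle HP, at 114, 249, 246 and 226 TPM in G108 SP and at 209, 132, 134 and 281 TPM in G108 HP. For Cth the log2 fold change on SP was 1.90 (SE 0.36), close to the 1.94 of Gm43314, and 0.96 (SE 0.36) on HP, below the 1.78 of Gm43314. After scaling Cth had 1.14 on SP, where its groups overlapped, and 0.84 on HP, beside 1.31 and 1.69 for Gm43314. Reads on Gm43314 were 3.12% ± 0.957 of those on Cth in vehicle SP, 2.87% ± 0.985 in vehicle HP, 4.41% ± 0.561 in G108 SP and 6.56% ± 3.29 in G108 HP (SD, n = 4). The groups overlapped in this ratio on both diets. Vehicle SP mouse 1, at 4.42%, lay above G108 SP mice 2 and 4, at 3.89% and 3.95%. Vehicle HP mouse 1, at 4.04%, lay above G108 HP mouse 1. In G108 HP the ratio was 3.95%, 7.37%, 10.9% and 4.04% in mice 1 to 4. Mice 2 and 3, the highest in this ratio, had the lowest Cth of their group and the highest share of mitochondrial genes, and the part of either in the ratio was not tested. Reads of unspliced Cth RNA and of a separate Gm43314 RNA cannot be told apart in these counts.

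**Figure D3:**
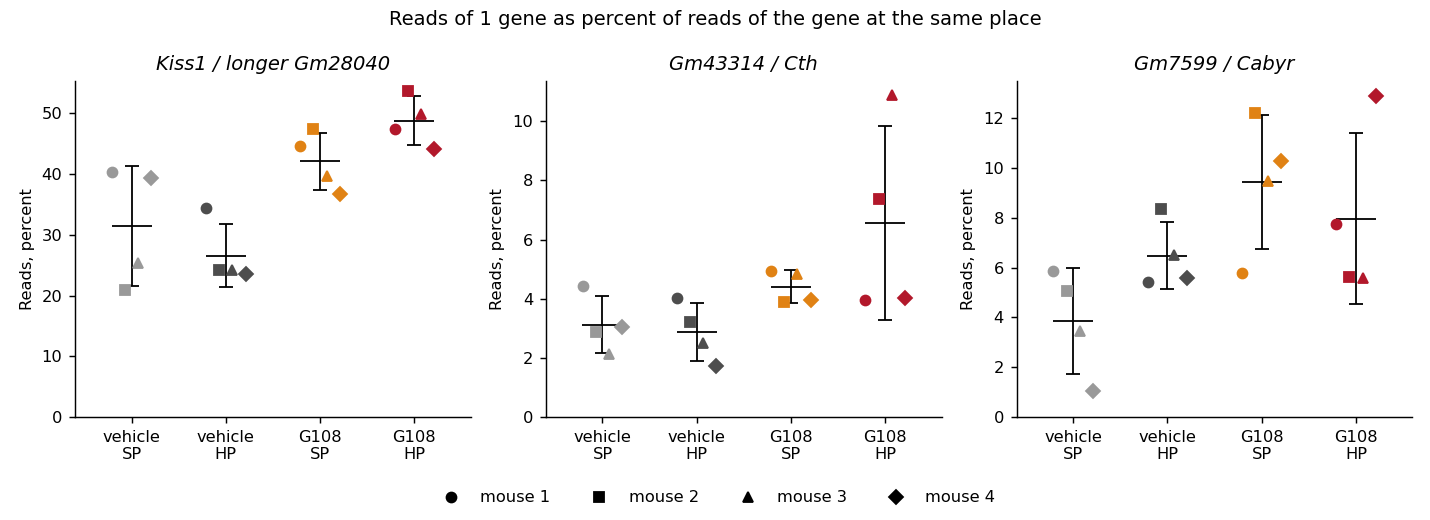
Reads on Kiss1 as percent of those on the longer Gm28040, on Gm43314 as percent of those on Cth, and on Gm7599 as percent of those on Cabyr, 1 symbol per mouse, with mean and SD of 4 mice. Mice 2 and 3 of G108 HP stand apart in the ratio of Gm43314 to Cth, at 7.37% and 10.9%.

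On the log2(TPM + 1) scale, which understates the change of low genes, the rises on SP were 2.50 (SE 0.46) for Cyp17a1, 2.03 (SE 0.31) for Cabyr, 1.94 (SE 0.33) for Gm43314 and 1.91 (SE 0.24) for Kiss1. After scaling they were 1.79 (SE 0.42), 1.36 (SE 0.33), 1.31 (SE 0.37) and 1.20 (SE 0.31). On HP the rises were 2.23 (SE 0.31) for Cabyr, 1.78 (SE 0.33) for Gm43314, 1.76 (SE 0.24) for Kiss1 and 1.51 (SE 0.46) for Cyp17a1, and 2.14, 1.69, 1.66 and 1.40 after scaling. The order thus differed by diet, with Cyp17a1 first on SP and last on HP. Among all 11839 genes Cyp17a1 ranked 3 on SP and 20 on HP, Cabyr 37 and 1, Gm43314 47 and 5, and Kiss1 50 and 6. These ranks hold for a pseudocount of 1: with a pseudocount of 0.1 they were 27 and 75 for Cyp17a1, 62 and 10 for Cabyr, 57 and 27 for Gm43314 and 112 and 34 for Kiss1, and with voom on recovered reads, over 11798 genes, 25 and 68, 74 and 9, 67 and 22, and 134 and 31. The 4 genes were thus not the highest on SP, where Got1 (3.01) and Tat (2.53), enzymes of amino acid breakdown, stood above Cyp17a1, and Cyp4a14 (2.49) and Pck1 (2.47) just below it. On HP, Gm7599 (1.73) and the fatty acid desaturase relative Fads3 (1.71) came next below Kiss1 among genes called with groups that did not overlap.

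As the background to these values, limma with Benjamini-Hochberg adjustment called 77.0% of the 11839 genes higher and 0.608% lower with G108 on SP, and 0.819% higher and 0.296% lower on HP. The groups did not overlap, with G108 higher, for 56.0% of genes on SP and 7.67% on HP. After scaling the calls on SP were 1.33% of genes upward and 1.39% downward, those on HP 0.642% upward and 0.583% downward, and groups did not overlap, with G108 higher, for 4.52% on SP and 4.2% on HP. All 4 genes lacked overlap on both diets in TPM, and after scaling 3 of 4 did on SP and 4 of 4 on HP. These values chose the genes, so nothing is read from their count.

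**Figure D4:**
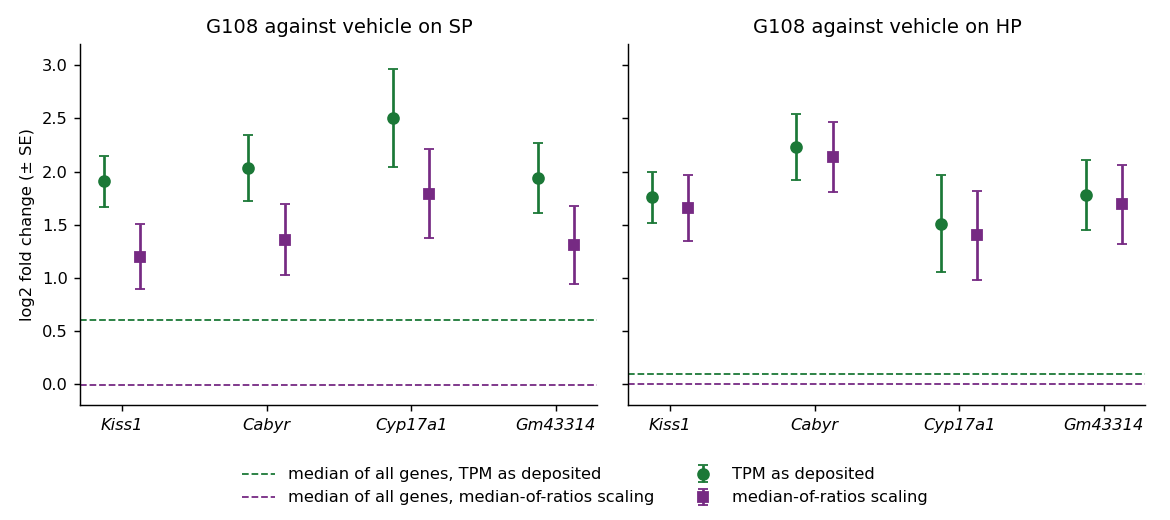
Log2 fold change (± SE from the model of all 16 libraries) of the 4 genes with G108 on SP and on HP, from TPM as deposited (circles) and after median-of-ratios scaling (squares), with the median of all 11839 genes as dashed lines. On SP scaling lowers the 4 values along with the median gene, from 0.60, and on HP the 2 scales nearly coincide.

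The comparison of HP with SP within a treatment did not choose the genes, although it shares libraries with the comparisons that did, and it asks whether dietary protein moved them. Limma called 0 genes in it with G108 (0.0% of genes, with 5325 at an unadjusted p under 0.05) and 0 with vehicle (0.0%, with 374). Limma-voom on recovered reads also called 0 in each, with 2416 and 934 at an unadjusted p under 0.05. It was run without scaling, and its median gene stood at -0.25 with G108 and 0.16 with vehicle. With G108 the log2 differences of HP from SP were -0.07 for Kiss1 (95% interval -0.58 to 0.43, limma adjusted p = 0.789), 0.45 for Cabyr (-0.21 to 1.12, 0.229), -0.36 for Cyp17a1 (-1.33 to 0.62, 0.508) and 0.28 for Gm43314 (-0.43 to 0.98, 0.481). The treated groups overlapped for all 4 genes in TPM. In TPM the intervals leave room for a difference of over 2-fold in Cabyr and Cyp17a1. After scaling the 95% intervals, not adjusted for the number of genes, were -0.3 to 1.01 for Kiss1 and 0.16 to 1.59 for Cabyr. For Cyp17a1 the scaled interval was -0.82 to 0.98 and for Gm43314 -0.1 to 1.47. These libraries therefore do not show that the diets gave the same level.

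The median gene was 0.35 lower on HP than on SP with G108, and after scaling the differences were 0.35 for Kiss1, 0.87 for Cabyr, 0.08 for Cyp17a1 and 0.69 for Gm43314, each with a limma adjusted p of at least 0.858. For Kiss1 and Cyp17a1 the sign thus turned with the scale. In scaled TPM, Gm43314 of G108 HP (10.1 to 21.8) lay above that of G108 SP (6.00 to 9.67) in every mouse, as was the case for 2.15% of all genes. Without G108 SP mouse 1, 3012 genes were called between the diets, and without G108 HP mouse 4, 5047 genes were, against 0 with all libraries, yet over every single omission the adjusted p of the 4 genes stayed between 0.135 and 0.977.

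With vehicle the log2 differences of HP from SP were 0.08 for Kiss1 (95% interval -0.43 to 0.58, limma adjusted p = 0.907), 0.26 for Cabyr (-0.41 to 0.92, 0.751), 0.63 for Cyp17a1 (-0.34 to 1.60, 0.727) and 0.43 for Gm43314 (-0.27 to 1.14, 0.727). After scaling they were -0.10, 0.10, 0.48 and 0.30, with the sign of Kiss1 turned. None of the 4 genes was called, and the vehicle groups overlapped for each of them. The G108 rise on HP less that on SP, which combines the values that chose the genes and so has no test, was -0.15 (SE 0.34) for Kiss1, 0.20 (SE 0.44) for Cabyr, -0.99 (SE 0.65) for Cyp17a1 and -0.16 (SE 0.47) for Gm43314, against -0.49 for the median gene. After scaling it was 0.45, 0.77, -0.40 and 0.38.

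Of 18 listed targets of glucagon, cyclic AMP and CREB 14 were tested, of which limma called 14 on SP and 5 on HP, with 0 lower, or 10 and 3 after scaling. These counts stand beside 77.0% and 0.819% of all genes, and 1.33% and 0.642% after scaling. Fos, Nr4a2, Nr4a3 and Pde4d were not tested, and Fos stood at 0.206 and 0.237 TPM in vehicle and G108 on SP and at 0.217 and 0.186 on HP. The list's median was 1.81 with SP and 0.95 with HP, beside 0.60 and 0.09 for all genes, and 1.14 and 0.83 after scaling. On SP the amino acid enzymes Got1 and Tat rose by 3.01 and 2.53 on the log2 scale, Pck1, of glucose production, by 2.47, and Sik1, a kinase that restrains CREB signalling, by 2.21 (limma adjusted p of 7.32e-05, 0.000179, 0.000517 and 0.000255). On HP the 5 were Sik1 (1.56, limma adjusted p = 0.0219), Tat (1.52, 0.0357), Sds, a serine-degrading enzyme (1.14, 0.0384), Per1, of the circadian clock (0.89, 0.02), and the coactivator Ppargc1a (0.73, 0.0338). Pck1 stood at 407 ± 132 TPM in vehicle HP and 970 ± 157 in G108 HP and did not pass (1.30, limma adjusted p = 0.16). The HP calls rest on few libraries: without vehicle HP mouse 3, 7 genes in all were called on HP, and without vehicle HP mouse 4, 0 were (limma, 834 at an unadjusted p under 0.05).

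The median of other genes of steroid metabolism lay near that of all genes. Of 28 listed 17 were tested, and 12 were called higher on SP (77.0% of all genes were), at a median of 0.73 beside 0.60 for all genes, and 0 on HP (0.819% of all genes), at 0.02 beside 0.09. After scaling 0 were called higher and 1 lower on each diet, where 1.39% of all genes were lower on SP and 0.583% on HP. The highest on SP was Por, the reductase that supplies electrons to Cyp17a1 (1.27, limma adjusted p = 0.00263), followed by Hsd17b7 (1.16), Cyb5b (1.07) and Fdxr (1.06). The gene called lower after scaling was Hsd17b2, which oxidises sex steroids (-0.84 on SP and -0.77 on HP, limma adjusted p of 0.00339 and 0.0171), and it was not called in TPM (-0.09 and -0.64). Some enzymes of steroid synthesis in adrenal and gonad were at or near 0: Cyp11a1, the first step, reached at most 0.0397 TPM, Hsd3b1 at most 0.0248 TPM, Hsd17b3 at most 0.0327 TPM, and Cyp19a1, Cyp11b1 and Cyp11b2 were at 0 in all 16 libraries. Star, which brings cholesterol to Cyp11a1, reached 1.54 TPM. Others were well expressed in every group, with group means of 20.8 to 24.7 TPM for Hsd3b2, 16.6 to 28.1 for Hsd3b3, 38.2 to 71.7 for Hsd17b6 and 277 to 494 for Akr1c6. Single genes lay further from the median gene on HP, in both directions and without being called. Hsd3b5 had means of 61.6 TPM in vehicle HP and 25.5 in G108 HP, and Fdxr had 14.2 and 28.8.

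Of 10 factors known to act on Cyp17a1 in liver or gonad 7 were tested, with 5 upward calls on SP and 1 on HP, or 2 and 1 after scaling, and medians of 0.81 and 0.19. Of all genes 77.0% and 0.819% were called, or 1.33% and 0.642% after scaling, at medians of 0.60 and 0.09. Ppargc1a went from 0.741 ± 0.279 to 3.56 ± 0.957 TPM on SP (log2 1.38, limma adjusted p = 8.1e-05) and from 0.907 ± 0.0911 to 2.18 ± 0.481 TPM on HP (SD, n = 4), and was called on both scales and both diets. On SP the change of the nuclear receptor Nr5a2 was 1.21 (limma adjusted p = 0.00019), or 0.54 after scaling (0.013), and on HP it stood at 0.33 (0.451). Hnf4a, a master regulator of hepatocyte genes, was called on SP in TPM only (0.91). Nr5a1, the receptor that drives Cyp17a1 in the gonad, reached at most 0.0179 TPM.

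Partners of Kiss1 and Cabyr lay near the median gene. The share of all genes called higher was 77.0% on SP and 0.819% on HP. Of 8 genes for the kisspeptin receptor, its G proteins and processing enzymes 4 were tested and all 4 were called higher on SP, at a median of 0.75, and 0 on HP, at 0.03, and 0 were called on either diet after scaling. They were the G protein subunits Gna11 (0.85 on SP) and Gnaq (0.69) and the proteases Mmp14 (0.81) and Furin (0.64). The receptor gene Kiss1r reached at most 0.388 TPM. Of 11 genes of the sperm fibrous sheath and related proteins 3 were tested, Ropn1l (0.83 on SP), Prkar2a (0.64) and Odf2 (0.41), called higher on SP and not on HP, and 0 were called after scaling. Akap4, Ropn1, Fsip2 and Odf1, of the sheath and outer dense fibres, were at 0 in all 16 libraries and Akap3 reached at most 0.0154 TPM.

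**Figure D5:**
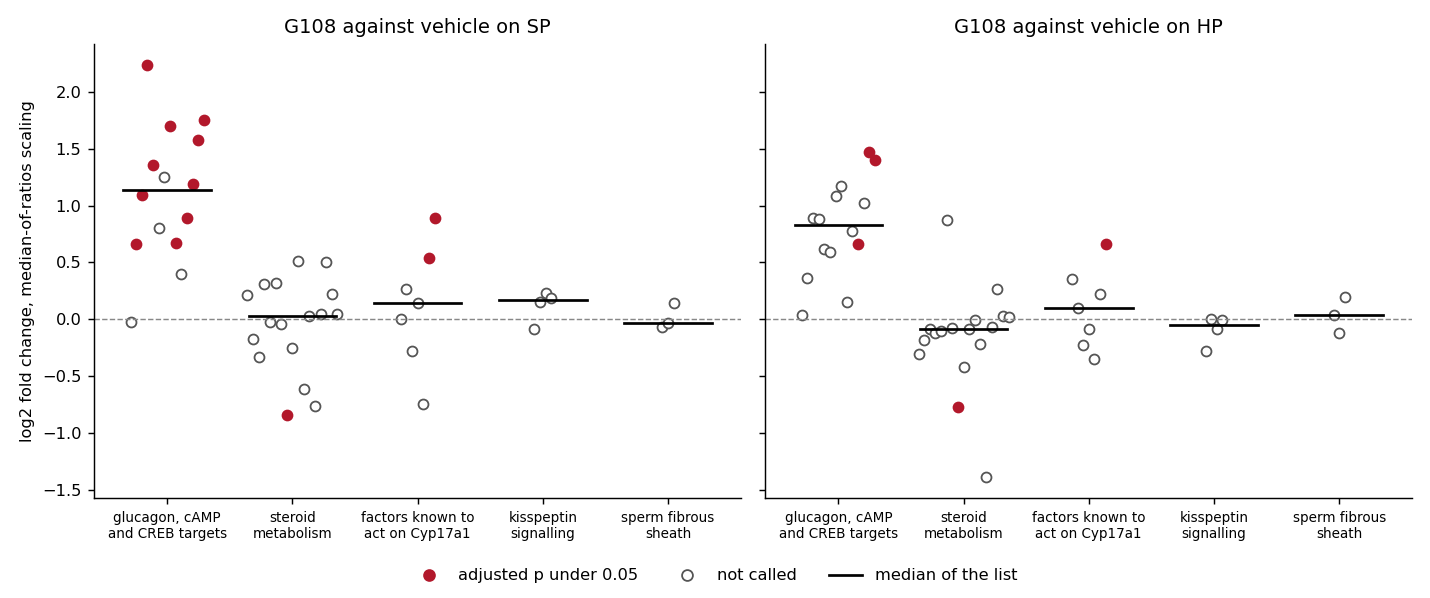
Log2 fold change with G108 on SP and on HP, after median-of-ratios scaling, of the tested genes on 5 lists, 1 point per gene, filled where the limma adjusted p was under 0.05, with the list's median as a bar. The glucagon, cyclic AMP and CREB targets sit around 1.14 and 0.83, and the other lists around 0.

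Of the hepatocyte markers 6 were matched, and they summed to 13400 to 35700 TPM per library. Of 8 male germ cell markers 7 were at 0 in every library and the other, Acrv1, reached 0.0229 TPM, so the defining markers of sperm cells were at or near 0 where Cabyr reached 27.6 TPM. Of 9 markers of steroid-producing cells Cyp11b1, Cyp11b2 and Mc2r were at 0, and the sum, almost all of it Insl3, Star and Cyp21a1, was 3.69 to 6.74 TPM in vehicle SP, 3.41 to 6.68 in vehicle HP, 7.05 to 7.49 in G108 SP and 6.05 to 7.0 in G108 HP. The medians of this sum were 4.72 TPM in vehicle SP and 7.34 in G108 SP, and 4.55 in vehicle HP and 6.59 in G108 HP. It was thus higher with G108, at a smaller ratio than Cyp17a1. The sum was not scaled, and in TPM the median gene was itself 0.60 higher on SP and 0.09 higher on HP (log2). The part of this sum in the Cyp17a1 result was not tested. The 5 neuron markers summed to 0.352 to 0.885 TPM, with Snap25 and Tac2 at 0. The 5 Kupffer cell markers summed to medians of 35.6 TPM in vehicle SP, 50 in G108 SP, 36 in vehicle HP and 34 in G108 HP, and those of stellate, endothelial, bile duct and T and B cells stayed under 25 TPM in total per list. In whole liver, fewer cells of a type and less RNA per cell cannot be told apart.

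The genes whose pattern over the 16 libraries was most like each of the 4 were found by the root-mean-square difference of standardised log2 values after scaling, given as a description. For Kiss1 they were the longer Gm28040 (0.219 SD), which shares its reads, Csrp2, a LIM-domain protein (0.31), and Slc25a51, a mitochondrial carrier (0.325). For Cabyr they were the deubiquitinase Yod1 (0.268), the opsin Opn3 (0.304) and Vps37b (0.354), and for Cyp17a1 Baiap2l1 (0.332), Acat3 (0.337) and the urea cycle enzyme Arg1 (0.356). For Gm43314 they were Nnmt (0.32), the longer Gm28040 (0.326) and the phosphate carrier Slc25a3 (0.332). All genes come from the same libraries, with the same depths, and the pattern holds the group difference that chose the 4 genes. Among themselves, Kiss1 and Gm43314 were nearest (0.433) and Cabyr and Cyp17a1 farthest apart (0.806), and Cth did not come among the 3 genes nearest to Gm43314.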

How the data were processed

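RNA-seq of 16 livers, 1 library per mouse, was used. The authors checked reads with FastQC 0.11.8, aligned them to GRCm38 with HISAT2 2.0.5, used featureCounts for gene counts, and divided by exon length and library total to obtain TPM. What they deposited is 1 table of TPM with 16 columns, assigned to mice by the descriptions in the labels. The authors' DESeq2 1.36.0 results on counts were not used here. Symbols and exons came from GENCODE M21, which matched 55141 of 55487 identifiers. Counting by strand is not given in the sources used here, and the authors counted with another release of the annotation.

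Values were tested as log2(TPM + 1) with limma 3.58.1 in R 4.3.3 (trended variance, 1 mean per group, 16 libraries, mean TPM of at least 1). Benjamini-Hochberg adjustment ran over 11839 genes, calling an adjusted p under 0.05. The procedure was tested on simulated data with independent genes and no shift of the median gene. It was thus not tested under the shift seen here. Median-of-ratios factors used 11591 genes. Depth was recovered from low values, of which 98.8% of 138863 lay within 0.02 of a whole read, and those reads also entered limma-voom. They entered it without the median-of-ratios factors, so its fits keep a shift of the median gene (0.59 with G108 on SP and 0.17 on HP). Counting error and the spread between 4 mice limit the precision. The labels number the mice 1 to 4 in each group without saying that a number is shared. Alternatives were other pseudocounts, filters, scaling, a fit to the compared groups alone, a block for the mouse number, and leaving out each mouse.

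The 4 genes, the gene and marker lists and the tests were chosen with earlier results of these data known. The text names the 4 genes, their overlapping and neighbouring genes, up to 4 called members per list and comparison with the largest change (the fifth on HP, Ppargc1a, stands on 2 lists) and those at or near 0, the 3 genes most like each gene, and those next in rank.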

Additional observations from a re-analysis of the deposited data

Results flagged for a closer look

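Of 48 groups examined (12 genes at or beside the 4 loci, each in 4 groups), 1 held a library far from the other 3. In G108 SP, Golt1a stood at 13.7 TPM in mouse 1, and at 18.5, 18.6 and 18.8 TPM in mice 2 to 4, a gap of 0.95 of the group's range, above Dixon's 95% limit for 4 samples. Chance alone passes that limit in about 1 in 20 groups.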

How the results depend on the processing

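The rises of the 4 genes with G108 kept their sign under every alternative run. Median-of-ratios scaling took them on SP to 1.20 for Kiss1, 1.36 for Cabyr and 1.31 for Gm43314, the G108 rise on HP less that on SP to 0.45, 0.77 and 0.38, the level of Kiss1 in G108 SP to 16.3 and of Cabyr in vehicle SP to 3.53, and the genes called on SP from 9185 to 322. Leaving out 1 mouse gave rises on SP of 1.80 to 2.13 (Kiss1), 1.73 to 2.25 (Cabyr), 1.99 to 2.79 (Cyp17a1) and 1.72 to 2.30 (Gm43314), and on HP of 1.62 to 1.99, 2.07 to 2.37, 1.25 to 1.68 and 1.57 to 1.92.
The diet difference of Kiss1 changed sign with G108 from -0.07 to 0.35 with scaling and 0.12 with voom (-0.13 to 0.03 without 1 mouse), and with vehicle from 0.08 to -0.10 with scaling (-0.15 to 0.29 without 1 mouse). That of Cyp17a1 with G108 went from -0.36 to 0.08 with scaling. The cause was not tested.
Genes called on SP numbered 4479 at a mean TPM of at least 5, where fewer genes are tested. On HP 132 were called, 37 with no filter, 84 with only the groups compared, 305 with voom and 0 to 118 without 1 mouse: 7 and 0 without vehicle HP mouse 3 or 4, and 50, 32 and 29 without G108 HP mouse 2, 3 or 4. Between diets with G108, 0 became 2 at a mean TPM of at least 5 and 0 to 5047 without 1 mouse. With vehicle, 0 became 1 with no filter. For the G108 rise on HP less that on SP, 0 became 1 with no filter and 0 to 5202 without 1 mouse (3466, 3956 and 5202 without vehicle SP mouse 2, G108 SP mouse 1 or G108 HP mouse 4).
Of the 3 genes most like each of the 4, 2 were shared without scaling for Kiss1 and for Cabyr and 1 for Cyp17a1 and for Gm43314.
Mouse numbers did not pair the libraries: 8 of 24 same-number pairs correlated above 0.1 (-0.575 to 0.527) and 3 of 16 libraries correlated best with their own number. With the mouse number as a block, 71 genes were called on HP and 8954 on SP. Every group holds each mouse number once, so this block cannot move the log2 fold changes of the 4 genes.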
